A study of Mus musculus with 4 samples.

Results

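Closely paired CHD8 peaks are neighbouring sites of the chromatin remodeller CHD8 that lay 300 to 2000 bp apart in mouse embryonic stem cells. A pair was taken where 2 neighbouring autosomal peaks of ChIP replicate 2 had a gap in that range and each overlapped a different peak of ChIP replicate 1 by at least 1 bp. This gave 938 pairs among the 30472 neighbouring autosomal peaks of replicate 2. They held 1805 distinct replicate 2 peaks, because 71 peaks belonged to more than 1 pair. These were 5.92% of the 30491 autosomal peaks and 9.73% (95% Wilson interval 9.32 to 10.2) of the 18543 that overlapped a replicate 1 peak. The gap and the overlap chose the pairs, so both are given as descriptions only.

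CHD8 is an ATP-dependent remodeller of the CHD family that moves nucleosomes. It is known to occupy the promoters of active genes, to restrain targets of beta-catenin and of p53, and to be mutated in a form of autism with a large head. Chromatin at an active promoter or enhancer is often open over a short stretch, with positioned nucleosomes on either side.

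The study profiled ES cells kept in 2i medium on gelatin, in which both endogenous Chd8 copies carry a 3xFLAG tag at the C terminus. The groups were 2 ChIP samples made with an antibody against the tag and 2 input samples without antibody; all shared the same cell type and growth condition. Peaks that the antibody would give in cells without the tag cannot be told apart from CHD8 peaks, since no such ChIP was used here. The labels do not say whether the replicates are separate cultures, so their spread may be technical. A pair in a cell population can be 2 sites occupied in the same cells or in different cells, and these cannot be told apart. The lists held 22706 peaks in replicate 1 and 31002 in replicate 2, and the ChIP libraries 3.44 and 3.56 reads per 200 bp genome-wide. Peaks are given by position in mm9, 1-based, and no gene was assigned.

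In most close neighbours of replicate 2, replicate 1 had no peak at 1 or both of the peaks. Replicate 2 held 3474 autosomal neighbours in the gap range. In 938 of them, or 27.0% (Wilson interval 25.6 to 28.5), both peaks met different replicate 1 peaks. The share was 25.5% at gaps under 300 bp and 35.8% (35.3 to 36.3) over all neighbours of any gap, and these differences were not tested. In 1701 neighbours 1 of the peaks met a replicate 1 peak, in 798 neither did, and in 37 a single replicate 1 peak ran across both. The authors' fold enrichment, which is the summit height over the caller's local background as a linear ratio, had a median of 5.33 in the 938 pairs. It was 4.49 where 1 peak was met, 4.51 where a single peak ran across and 3.91 where none was met. The pairs had the highest median of these close neighbours in replicate 2, and overlap with replicate 1 was part of their choice. Overlapping autosomal replicate 2 peaks in general had a median fold of 5.90, against 4.71 for all autosomal replicate 2 peaks. The gap was a median of 350 bp where a single replicate 1 peak ran across both peaks, against 724 bp where neither was met.

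**Figure D1:**
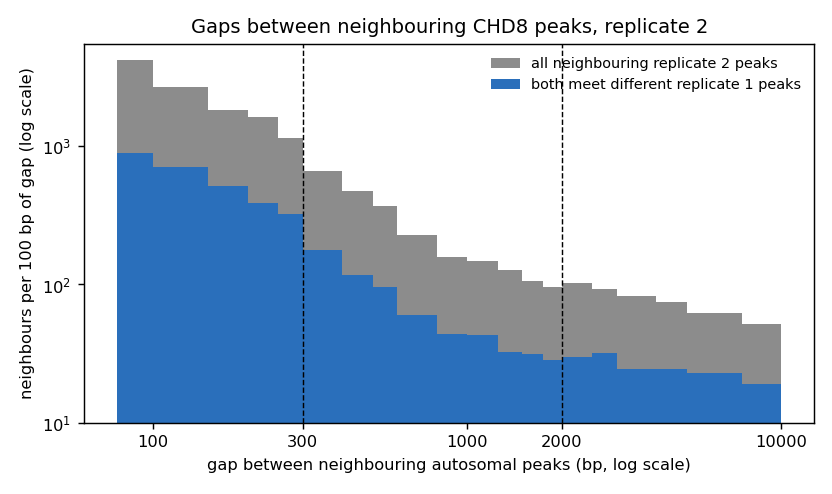
Number of neighbouring autosomal replicate 2 peaks per 100 bp of gap against the gap in bp, both on log scales; grey steps show all neighbours, blue steps those whose peaks met different replicate 1 peaks, and dashed lines the limits of 300 and 2000 bp. The number per 100 bp falls from 666 at 300 to 400 bp to 96.0 at 1750 to 2000 bp and changes little just beyond.

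Short gaps were the most frequent, both inside the range and below it. The smallest gap between autosomal neighbours was 77 bp in each list. Neighbours of any kind numbered 1138 per 100 bp of gap at 250 to 300 bp, 666 at 300 to 400 bp, 159 at 800 to 1000 bp and 96.0 at 1750 to 2000 bp. Beyond the upper limit they numbered 102.0 at 2001 to 2500 bp and 93.2 at 2500 to 3000 bp, as the plot of gaps shows. Gaps of the 938 pairs had a median of 724 bp, with quartiles of 443 and 1232 bp and a range of 300 to 1997 bp. Of the pairs, 64.1% (Wilson interval 61.0 to 67.1) had a gap of at most 1000 bp. The whole pair, from the start of the first peak to the end of the second, spanned a median of 2567 bp. First and second here mean the order along the chromosome.

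Peaks at the limits ranged from weak to strong. Just inside the lower limit lay pairs on chromosome 2 at 32391312 to 32392119 (gap 300 bp), chromosome 1 at 20476184 to 20477204 (300 bp) and chromosome 14 at 14792855 to 14794453 (301 bp). Their replicate 2 folds ran from 4.11 at the first peak on chromosome 2 to 10.96 at the second peak on chromosome 1. Just outside, on chromosome 8, neighbours with a gap of 298 bp had folds of 6.07 and 4.81 at 86937962 to 86939740. Just inside the upper limit, on chromosome 11 at 101786933 to 101790192, a gap of 1997 bp separated peaks with folds of 4.51 and 2.55. Just outside it, on chromosome 17 at 29853252 to 29857086, a gap of 2004 bp separated peaks with folds of 17.4 and 4.51. Also just outside, on chromosome 8 at 124352995 to 124356682, a gap of 2005 bp separated folds of 19.4 and 3.77.

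The summits of a pair lay at a similar distance in replicate 1, where the rule asked each partner to overlap its replicate 2 peak. That overlap limits how far the spacings can differ, so they are given as descriptions. The spacing between the summits had a median of 1709 bp in replicate 1 and 1674 bp in replicate 2, or 1691 ± 25.1 bp (SD of the replicate medians, n = 2). Pair by pair it shifted by a median of 165 bp between the replicates (95% binomial interval of the median 149 to 184). It was within 100 bp in 309 pairs, or 32.9%, and within 500 bp in 795, or 84.8% (Wilson interval 82.3 to 86.9). The first summit moved by a median of 96 bp and the second by 106 bp, against 100 bp (98 to 102) over all 18543 overlapping autosomal replicate 2 peaks. Across the 938 pairs the spacings had a Spearman's rho of 0.89, given as a description, since overlap with the same replicate 2 peaks ties the spacings together.

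**Figure D2:**
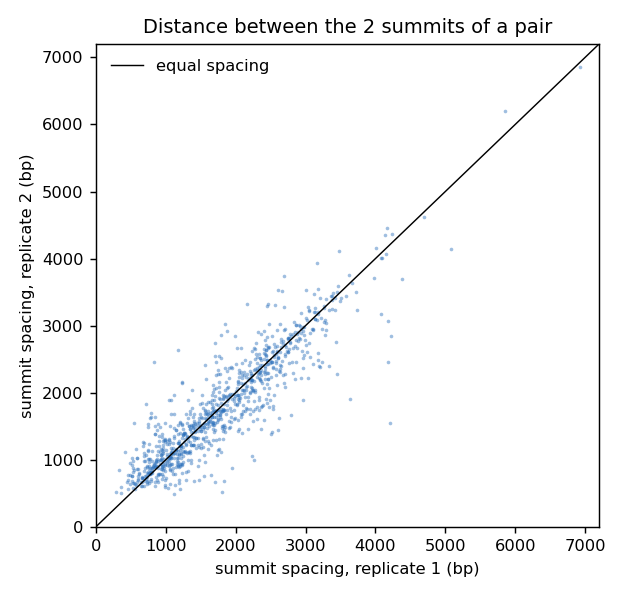
Distance between the summits of a pair in bp in replicate 1 (horizontal) and replicate 2 (vertical), 1 point per pair; the line marks equal spacing. The points follow the line, with a median shift of 165 bp, and a few lie more than 1000 bp off it.

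The distance between the chosen partners in replicate 1 was mostly wider than the replicate 2 gap. It had a median of 1024 bp (binomial interval 949 to 1099, range 79 to 4069). It exceeded the replicate 2 gap in 668 pairs, or 71.2%. The rule limited the gap in replicate 2 and left that in replicate 1 free, so this difference is a description only. The distance also runs across any further replicate 1 peak between the partners, so it was not always an empty stretch. The partner peaks in replicate 1 were also narrower, with a median width of 507 bp against 745 bp for the paired peaks in replicate 2. Neither median stood above that of the overlapping autosomal peaks, which was 565 bp in replicate 1 and 850 bp in replicate 2. In 47 pairs, or 5.01% (3.79 to 6.60), replicate 1 had a peak of its own wholly inside the gap. Those inner peaks were weak and short, with a median fold of 3.60 (range 2.56 to 5.18) and a median width of 265 bp. Counting also replicate 1 peaks that overlap a peak of the pair, 165 pairs had a further peak between the chosen partners.

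No lean of the summits toward or away from the gap was seen. In replicate 2 the summit lay on the side of its peak that faces the other peak in 944 of 1873 cases, or 50.4% (Wilson interval 48.1 to 52.7). In replicate 1 it did so in 921 of 1871, or 49.2% (47.0 to 51.5). Cases with the summit exactly at the middle were left out. Both intervals include an even split.

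Paired peaks were of middling strength, and the stronger peak of a pair was mostly also the wider. The median fold was 4.51 for the 1799 partner peaks of replicate 1 and 5.34 for the 1805 paired peaks of replicate 2. Over the overlapping autosomal peaks it was 4.73 and 5.90, and over all autosomal peaks 4.51 and 4.71. The stronger peak of a pair had a median fold of 5.41 in replicate 1 and 6.71 in replicate 2. The weaker one had 3.83 and 4.51. By construction the stronger is above the weaker, so the size of the step is what these values give: a median fold ratio of 1.37 (binomial interval of the median 1.34 to 1.41) in replicate 1 and 1.39 (1.36 to 1.44) in replicate 2.

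**Figure D3:**
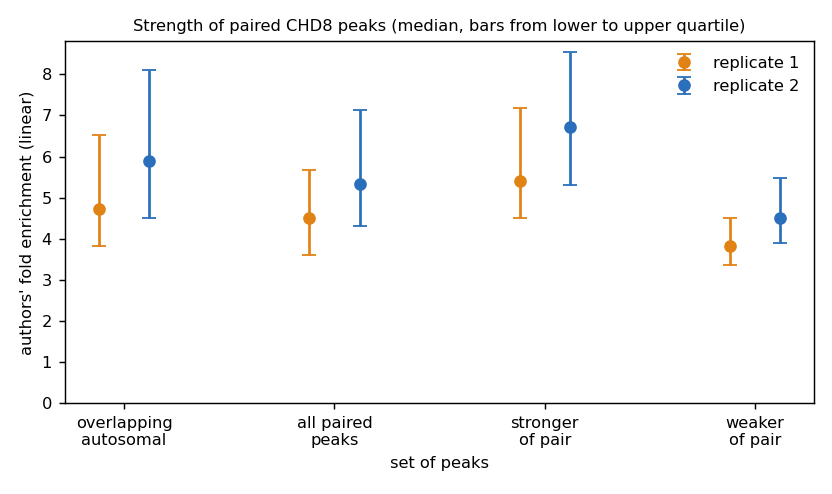
Median of the authors' fold enrichment (linear, from 0) in replicate 1 (orange) and replicate 2 (blue) for all overlapping autosomal peaks, all paired peaks, and the stronger and weaker peak of each pair; bars run from the lower to the upper quartile. Paired peaks sit at 4.51 and 5.34, below the 4.73 and 5.90 of the overlapping peaks.

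Width went with strength. The stronger peak was also the wider in 663 of 922 pairs with no tie in replicate 2, or 71.9% (Wilson interval 68.9 to 74.7), and in 681 of 925 in replicate 1, or 73.6%. In replicate 2 the stronger peak was a median of 957 bp wide and the weaker 540 bp. Both peaks exceeded 1 kb in 120 pairs of replicate 2 and 45 of replicate 1, and neither did in 420 and 600. Of the paired replicate 2 peaks, 34.1% were wider than 1 kb, against 41.3% of the overlapping autosomal peaks. The peak with the higher −log10 q was in the top 20% of its list in 416 pairs, or 44.3%, in replicate 2 and in 257, or 27.4%, in replicate 1. The other peak was too in 61 and 32 pairs. All 4 peaks, 2 in each replicate, were in the top 20% of their lists in 25 pairs, or 2.67%. These counts are descriptions, since picking the higher peak raises its share and no such share is given for other neighbours.

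Each replicate ranked the peaks of a pair in the same order in most cases. The peak with the higher fold was the same in both replicates in 672 of 912 pairs without a tie, or 73.7% (Wilson interval 70.7 to 76.4). By summit read number it was the same in 703 of 872, or 80.6% (77.9 to 83.1). That share was 75.8% in neighbours 77 to 299 bp apart and 83.2% at 2001 to 10000 bp. It was 84.3% at 10001 to 100000 bp and 83.7% beyond, and these differences were not tested. Where the replicate 2 folds differed by 2 times or more, replicate 1 gave the same order in 152 of 160 pairs, or 95% (90.4 to 97.4). Where they differed by less than 1.2 times, it did so in 143 of 255, or 56.1% (49.9 to 62.0), an interval that includes an even split. The first peak along the chromosome was the stronger in 50.1% of untied pairs in replicate 2 and 49.2% in replicate 1.

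The size of the step was also close when read in the replicate that did not choose it. With the taller peak picked in replicate 1, the median log2 read ratio was 0.46 there and 0.40 (binomial interval 0.36 to 0.44) in replicate 2. With the taller peak picked in replicate 2, it was 0.47 there and 0.40 (0.36 to 0.45) in replicate 1. Across the 938 pairs the log2 read ratio of first over second peak in replicate 1 followed that in replicate 2 with a Spearman's rho of 0.78. In other neighbours that rho was 0.68 at 77 to 299 bp, 0.83 at 2001 to 10000 bp, 0.86 at 10001 to 100000 bp and 0.85 beyond. The summit reads of the first and second peak of a pair had a rho of 0.06 in replicate 1 and 0.11 in replicate 2. These rhos are descriptions across pairs of 1 library each, which share depth and calling threshold.

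**Figure D4:**
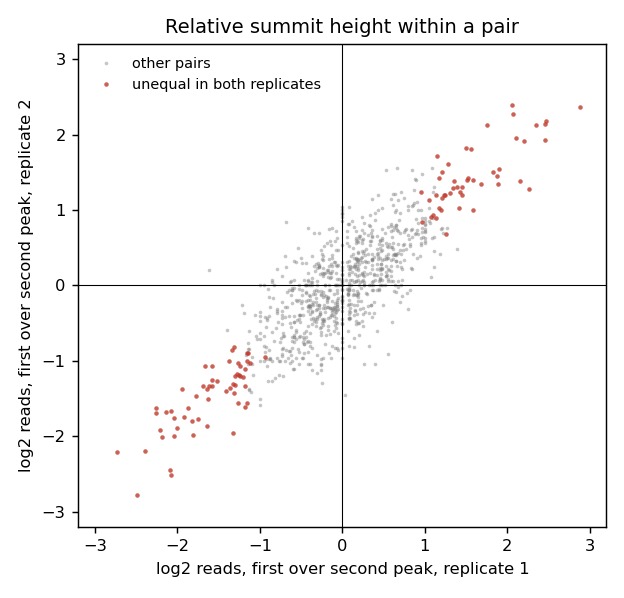
Log2 ratio of summit reads, first over second peak, in replicate 1 (horizontal) and replicate 2 (vertical), 1 point per pair. Red points are the 105 pairs called unequal in both replicates by the exact binomial test with the same peak taller, and grey points the others. This definition places red points in the lower left and upper right quadrants alone.

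Summit read numbers allowed a test of each pair within a library. An exact binomial test, two-sided with Benjamini-Hochberg adjustment, was run over all 10908 autosomal neighbours of any gap that met different replicate 1 peaks, and called a neighbour at an adjusted p under 0.05. In replicate 2 it called 178 of the 938 pairs, or 18.98% (Wilson interval 16.6 to 21.6), against 26.8% of all neighbours. In replicate 1 it called 118, or 12.6% (10.6 to 14.9), against 21.7%. In both replicates with the same peak taller it called 105 pairs, or 11.2%, against 17.8% of all neighbours. At an unadjusted p under 0.05 the test called 262 pairs in replicate 2, where 35.7% of all neighbours passed, and 200 in replicate 1, where 30.6% did. No pair was called in both with opposite peaks taller, at the adjusted or the unadjusted threshold, against 0.0275% and 0.0917% of all neighbours. The shares of the members were below those of all neighbours, which include them, and this difference was not tested. A paired peak of replicate 2 had a median of 28 summit reads. That median was 32 for neighbours 2001 to 10000 bp apart, 33 at 10001 to 100000 bp and 30 beyond. Their unequal shares in replicate 2 were 26.1%, 31.0% and 27.4%. The part of read number in the lower shares of the members was not tested. Each test compares positions in 1 library, a summit is a local maximum, and a peak can enter with each of its neighbours.

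Within the range, the median width was larger at each step to wider gaps, and the median fold and the unequal share were highest in the class with the widest gaps. Pairs with gaps of 300 to 443 bp, the shortest 235, had a median replicate 2 fold of 5.17 and a median width of 622 bp. Those with gaps of 444 to 723 bp had 5.12 and 671 bp, and those of 724 to 1230 bp had 5.34 and 797 bp. The 235 pairs with the longest gaps, 1233 to 1997 bp, had 5.75 and 853 bp. The unequal share in replicate 2 was 14.8% at 300 to 600 bp, 16.3% at 601 to 1000 bp and 25.5% at 1001 to 2000 bp, with medians of 27, 27 and 29 reads per summit. In replicate 1 it was 9.44%, 9.09% and 18.4%. Neighbours outside the range had 14.5% at 77 to 299 bp and 26.1% at 2001 to 10000 bp. The same peak was stronger by fold in both replicates in 68.6% (Wilson interval 65.8 to 71.2) of neighbours at 77 to 299 bp, 70.4% (65.6 to 74.7) at 300 to 600 bp, 76.2% (69.9 to 81.6) at 601 to 1000 bp and 75.9% (71.0 to 80.2) at 1001 to 2000 bp. Farther apart it was 76.2% (74.2 to 78.2) at 2001 to 10000 bp, 78.2% (77.0 to 79.3) at 10001 to 100000 bp and 80.4% (78.4 to 82.2) beyond. The differences between these classes were not tested.

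The 12 best-ranked pairs were strong at both peaks in both replicates. The rank of a pair is the worst of the 4 rank percentiles of its peaks by −log10 q. They lay on 8 chromosomes, 3 of them on chromosome 7, spanned 2742 to 8731 bp and had folds of 8.0 to 24.7. Both peaks were wider than 1 kb in 10 of them, and the summit spacing was within 200 bp between the replicates in 10. Only 7 of the 12 were kept when no further replicate 1 peak was allowed between the partners. Below, a level is the number of summit reads divided by the mean of the ChIP library per 200 bp, which puts the replicates on 1 scale.

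The best pair was on chromosome 7 at 52147043 to 52148684 and 52150563 to 52151975, with a gap of 1878 bp. Its first summit held 88 reads (exact Poisson interval 70.6 to 108) in replicate 1 and 121 (100.4 to 145) in replicate 2. Its second summit held 77 (60.8 to 96.2) and 81 (64.3 to 101). The first peak was the taller in both, with levels of 29.8 ± 5.91 and 22.6 ± 0.24 (SD, n = 2). The exact binomial test with Benjamini-Hochberg adjustment called the difference in replicate 2 (adjusted p = 0.0261) and not in replicate 1 (adjusted p = 0.722). The summits were 3290 and 3398 bp apart.

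On chromosome 17, at 15633880 to 15635801 and 15636148 to 15637510, a gap of 346 bp parted peaks with levels of 25.6 ± 1.25 and 17.8 ± 0.96 (SD, n = 2). The first peak had folds of 20.7 and 18.0 in replicates 1 and 2, and the second 13.5 and 12.04. The exact binomial test called this pair in neither replicate (adjusted p = 0.051 and 0.219). On chromosome 8, at 87548351 to 87550003 and 87550362 to 87552099, the peaks were close to equal, with levels of 21.8 ± 3.69 and 20.9 ± 3.31 (SD, n = 2). Its folds were 9.82 and 15.03 at the first peak and 11.1 and 14.9 at the second, so the peak with the higher fold changed between replicates.

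Other best pairs showed both kinds. On chromosome 7 at 5002238 to 5004420 and 5004775 to 5005973, the first summit held 105 and 106 reads and the second 44 and 66. It was the only one of the 12 called unequal in both replicates (exact binomial test, adjusted p = 1.11e-05 and 0.0144). On chromosome 15, at 84019814 to 84021205 and 84022057 to 84023535, the summits held 45 and 57 reads at the first peak and 63 and 70 at the second. Its spacing was 2413 and 2396 bp, and the second peak was the taller in both replicates. A further chromosome 7 pair, at 52378856 to 52381059 and 52382227 to 52385373, had summit spacings of 4690 and 4618 bp and levels of 13.3 ± 1.48 and 19.95 ± 2.73 (SD, n = 2). Replicate 1 also had a peak wholly inside the gap of this pair.

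The 6 remaining best pairs had summit levels of 13.0 to 19.9. They began at 23522445 and 73465068 on chromosome 13, 8844787 on chromosome 19, 133310051 on chromosome 4, 168779987 on chromosome 2 and 33226111 on chromosome 17. At the first peak of the pair at 23522445 the control coverage was 2.36 times its genome-wide background in replicate 2 and 1.41 times in replicate 1. Among the 12 best pairs the same peak had the higher fold in both replicates in 8, and the order changed in 4. By summit read number the order held in these 4, and it changed only in the pair at 23522445. The exact binomial test called 1 of the 12 unequal in replicate 1 and 2 in replicate 2, and the others were not shown to be equal by missing that threshold.

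**Figure D5:**
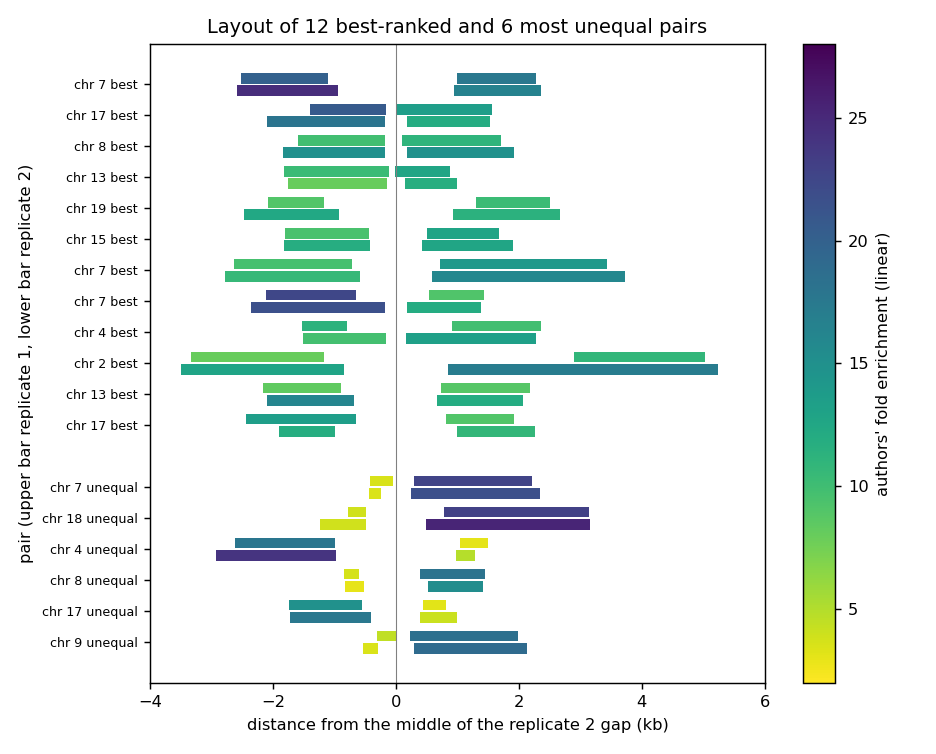
Extent of the peaks of 12 best-ranked pairs (top) and 6 most unequal pairs (bottom) in kb from the middle of the replicate 2 gap, upper bars from replicate 1 and lower bars from replicate 2, coloured by the authors' fold enrichment (2 to 28, linear). Further replicate 1 peaks between the chosen partners are not drawn. The best pairs are dark or mid-toned on both sides, and the unequal pairs have a pale bar beside a longer, darker one in both replicates.

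The 6 most unequal pairs set a weak peak beside one of the stronger CHD8 sites. They were chosen by the smaller of the fold ratios in the replicates, so their ratios are a description. The fold ratio ran from 4.10 to 6.46. Strong peaks were 899 to 2669 bp wide with levels of 22.5 to 32.1, and weak peaks were 202 to 750 bp wide with levels of 4.55 to 5.57. The stronger peak was the first in 2 pairs and the second in 4. On chromosome 7, at 13593576 to 13593777 and 13594260 to 13596357, the summits held 15 and 23 reads at the first peak and 100 and 106 at the second. On chromosome 18, at 60931686 to 60932435 and 60933409 to 60936077, they held 18 and 18 reads at the first peak and 101 and 124 at the second. Summit spacings were 1392 and 1495 bp in the first of these and 2047 and 2231 bp in the second. Over the 6 pairs the spacing shifted by 36 bp (chromosome 8) to 291 bp (chromosome 4) between the replicates.

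The remaining unequal pairs were of the same form. On chromosome 4, at 135428522 to 135430458 and 135432423 to 135432722, the levels were 31.5 ± 2.23 and 5.26 ± 1.68 (SD, n = 2), and replicate 1 also had a peak wholly inside the gap. On chromosome 8, at 87469420 to 87469727 and 87470771 to 87471669, they were 5.57 ± 0.34 and 27.5 ± 4.33 (SD, n = 2). On chromosome 17, at 47638581 to 47639899 and 47640696 to 47641294, they were 22.5 ± 2.26 and 4.55 ± 1.10 (SD, n = 2). On chromosome 9, at 21170835 to 21171072 and 21171661 to 21173496, they were 5.15 ± 0.53 and 24.8 ± 1.80 (SD, n = 2). That these levels lay far apart was fixed by the choice of the pairs.

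The 3 widest pairs by combined peak width covered long stretches. On chromosome 2, peaks at 168779987 to 168782634 and 168784332 to 168788717 added up to 7034 bp, with levels of 15.4 ± 2.84 and 19.3 ± 5.97 (SD, n = 2). This pair is also among the best-ranked. In replicate 1 the chosen partners were 4069 bp apart, against a gap of 1697 bp in replicate 2, while the summits were 6934 and 6861 bp apart. On chromosome 5, peaks at 123584797 to 123586885 and 123587679 to 123592453 added up to 6864 bp, with folds of 5.18 and 6.73 at the first and 8.56 and 10.8 at the second. On chromosome 11, peaks at 97517507 to 97518809 and 97520719 to 97525830 added up to 6415 bp, with 20 and 27 reads at the first summit and 52 and 54 at the second. In the last 2 pairs the wider peak was the taller in both replicates.

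Some pairs were linked into runs. Of the runs, 802 were a lone pair, 59 joined 3 peaks and 6 joined 4 peaks. The strongest member of a run of 4 was on chromosome 1, where peaks began at 135556191, 135560144, 135563947 and 135566490. Their replicate 1 folds were 27.5, 5.18, 8.79 and 7.21, and their replicate 2 folds 25.7, 6.93, 8.54 and 5.49. The first peak was the strongest in both replicates. The other runs of 4 lay on chromosome 10 from 75296452 and from 94773490, chromosome 15 from 98815809, chromosome 7 from 28114230 and chromosome 8 from 113551248. In the chromosome 8 run the last peak was the tallest in both replicates, with 68 and 90 reads, and control coverage reached 2.26 times the background at the peak before it in replicate 1.

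Many pairs had further peaks beside them. No further replicate 2 peak lay within 2 kb of 450 pairs, or 48.0% (Wilson interval 44.8 to 51.2), while in 297 pairs one lay under 300 bp away. At the other end, 257 pairs, or 27.4%, had no other peak within 10 kb. Pairs occurred on every autosome, from 0.24 per Mb (exact Poisson interval 0.16 to 0.35) on chromosome 14 to 0.73 (0.59 to 0.90) on chromosome 11, against 0.39 over the autosomes. As a share of the overlapping peaks of a chromosome, paired peaks made up 8.49% on chromosome 14 and 10.8% on chromosome 11. Over the autosomes the share ran from 7.77% (Wilson interval 5.89 to 10.2) on chromosome 16 to 12.1% (10.2 to 14.4) on chromosome 3. These intervals treat peaks as independent although paired peaks enter together, and the differences between chromosomes were not tested. Pairs fell into 582 windows of 1 Mb, of which 383 held exactly 1. The fullest windows, singled out after their values were seen, were on chromosome 13 from 23 to 24 Mb with 11 pairs and from 21 to 22 Mb with 9.

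Replicate 2 gave higher summits at paired peaks, as it did elsewhere. The level was higher in replicate 2 at 88.3% (Wilson interval 86.8 to 89.7) of 1876 peak positions, with a median ratio of 1.27 (binomial interval of the median 1.25 to 1.29). Over all overlapping autosomal replicate 2 peaks the ratio was 1.24 and 86.3% were higher. Control coverage at paired peaks was close to that elsewhere. It exceeded the genome-wide background by more than 2% at 42.1% of paired replicate 2 peaks and 41.2% of the overlapping peaks, and at 44.5% and 44.95% in replicate 1. It reached 2 times the background in at least 1 of the 4 peaks in 49 pairs, or 5.22%. Without those pairs the same peak had the higher fold in both replicates in 74.3%.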

How the data were processed

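Anti-FLAG ChIP of CHD8 was measured in 2 samples, each with a list of peaks in 10 columns. The 2 inputs had no list, and whether and how they entered the caller's background is not stated. Bowtie2 2.1.0, MACS2 2.1.1 and mm9 are named, without roles, per the submitters' processing notes; the control used and any filter: not given in the sources used here. Lists were made per sample. The deposited fold enrichment is a linear ratio of summit over local background; significance was deposited as −log10 of the p-value and of the q-value (at least 1.31 in every peak). For all peaks the deposited score equals 10 × −log10 q without its decimals.

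Neighbours were consecutive autosomal replicate 2 peaks. Where a peak met several replicate 1 peaks, the different partners with the largest total overlap were taken; in 9 pairs the peaks also shared a replicate 1 peak. Summit reads and control coverage were solved from fold and p by the caller's Poisson formulas. Control coverage here means the caller's local background. The genome-wide background was 3.44 and 2.55 and the ChIP scale 1 and 0.714. The largest misfit in log10 p was under 0.002; 78 replicate 2 peaks had more than 1 solution and took the closest. On simulated lists of 22706 and 31002 peaks made with these formulas, 100% of the read numbers came back, which tests the solving alone. The pair finder and the binomial test were also tested on simulated data. Levels are reads over the library mean of 3.44 or 3.56 per 200 bp. Wilson, Poisson and binomial intervals are at 95% and cover counting error only.

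The pairs and lists were chosen with earlier results of these data known. Named were the 12 best-ranked and 6 most unequal pairs, 3 on each side of each gap limit (examples given), runs of the most linked pairs and the 3 widest. Gene names and sequences were not used here, since the tables at hand are of GRCm38. Alternatives were stricter overlap, higher scores, equal lengths, replicate 1 as the starting list, other gap limits, no further peak nearby, no high control coverage, each replicate alone, and other measures of strength. Python 3.11.15, numpy 2.4.6, pandas 2.3.3, scipy 1.17.1 and matplotlib 3.10.9 were used.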

Additional observations from a re-analysis of the deposited data

How the results depend on the processing

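The order of the peaks within a pair held in most pairs under each alternative that gives it, while the number of pairs followed the rule closely. The 938 pairs became 425 under 50% reciprocal overlap, 219 in the higher-scoring 50% of each list, 450 with no further peak within 2 kb and 601 with gaps of at most 1000 bp. With a replicate left out, each list alone gave 2114 to 3474 pairs. With replicate 1 as the starting list there were 1341. The share with the same stronger peak, 73.7%, was 79.5% under 50% reciprocal overlap, 76.5% at higher scores, 69.0% from replicate 1, 76.6% with no further peak and 80.6% by summit reads. The median spacing of 1674 bp was 2413 bp at higher scores, 1874 bp at equal list lengths, 1495 bp from replicate 1, 1642 bp with no further peak, 1981 bp with gaps of at least 500 bp, 1279 bp with gaps of at most 1000 bp and 1643 bp without high control coverage. It was 1235 to 1401 bp with a replicate left out. Without a further replicate 1 peak between the partners, an alternative chosen after seeing the data, it was 1565 bp. Its median shift of 165 bp was 129 bp under 50% reciprocal overlap, 140 bp at higher scores, 200 bp from replicate 1 and 147 bp with no further peak. The median fold in replicate 1, 4.51, was 4.73 under 50% reciprocal overlap, 5.86 at higher scores, 4.63 at equal lengths, 4.28 from replicate 1 and 4.10 without replicate 2. In replicate 2, 5.34 became 5.79, 7.21 and 5.72 under the first 3 of these, 5.25 with gaps of at most 1000 bp and 4.51 without replicate 1. Fewer or other pairs enter by construction in each of these except the measure by summit reads. That measure keeps the 938 pairs, of which 872 had no tie by reads, against 912 by fold. The cause of these changes was not tested. At an unadjusted p under 0.05, unequal pairs numbered 200 in place of 118 in replicate 1 and 262 in place of 178 in replicate 2. Of the 24 orders in the 12 best pairs, 3 turned when strength was taken by −log10 q and 5 by reads; none of the 12 orders in the 6 most unequal pairs did. No paired analysis was possible because the inputs gave no table of their own and no result compares ChIP with input. Shares near gene starts were not run, for want of an mm9 annotation. The weaker summit rested on a median of 18 and 23 reads; the part of depth in the order was not tested.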
